A study of Rattus norvegicus with 12 samples.

Results

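The 4 cytoskeletal genes described here, which mark smooth muscle, myofibroblasts and mesenchymal cells, were followed in the lungs of rats given bleomycin and nintedanib: Acta2 (ENSRNOG00000058039), Tagln (ENSRNOG00000017628), Des (ENSRNOG00000019810) and Vim (ENSRNOG00000018087). They were taken by identifier from a table of 32623 genes, and all 4 passed the filter on low counts, which 14956 genes passed. Each library came from the homogenised right lung of 1 male Sprague-Dawley rat and was made with QuantSeq FWD, which reads the 3′ ends of polyadenylated transcripts. The 12 animals formed 3 groups of 4, all killed on day 28. SAL animals received saline into the trachea on day 0 and day 4, and BLM animals received bleomycin at 1 U/kg on the same days. Both groups were then gavaged every day with 0.5% methylcellulose, the vehicle, from day 7 for 3 weeks. NINT animals received bleomycin as in BLM and, over those 3 weeks, 100 mg/kg of oral nintedanib each day. The 0.5% methylcellulose is listed for them as well, so all 3 groups shared it. No NINT animal went without bleomycin, so the effect of the drug on an uninjured lung cannot be read from these groups. The labels give no age.

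Smooth muscle actin, the product of Acta2, is the actin of contractile cells in the walls of airways and vessels, and its appearance in fibroblasts is the usual sign of a myofibroblast, the contractile, matrix-producing cell of scarring tissue. Transgelin, from Tagln, binds actin filaments and is made by the same cells. Serum response factor, acting with myocardin-related coactivators at CArG boxes, is known to control both genes. Desmin, from Des, and vimentin, from Vim, form intermediate filaments. Desmin belongs to muscle cells and pericytes, while vimentin is made by fibroblasts, endothelium and leukocytes as well, so that the last gene marks mesenchymal and blood-derived cells in general. Nintedanib inhibits the receptor tyrosine kinases of platelet-derived, fibroblast and vascular endothelial growth factors.

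The 250 bases before the RefSeq start of Acta2, Des and Vim are shown to set the CArG boxes of Acta2, an actin gene, beside the same window of the filament genes. Tagln has no entry in the table of promoters used here. The sequences are from RefSeq on build GRCr8 and lie at chr1:241172504-241172753 on the minus strand for Acta2, chr9:84299376-84299625 on the plus strand for Des and chr17:81577011-81577260 on the plus strand for Vim. Capitals mark CArG boxes, here CC and GG around a core of 6 bases of which at most 1 is G or C and the others A or T, and matches to the motif TATANAA on the strand of the gene.
Acta2: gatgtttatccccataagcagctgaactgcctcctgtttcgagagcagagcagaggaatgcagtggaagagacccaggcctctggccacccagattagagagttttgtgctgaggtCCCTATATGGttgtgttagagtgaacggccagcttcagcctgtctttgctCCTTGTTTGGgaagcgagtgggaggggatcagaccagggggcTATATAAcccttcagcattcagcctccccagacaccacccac
Des: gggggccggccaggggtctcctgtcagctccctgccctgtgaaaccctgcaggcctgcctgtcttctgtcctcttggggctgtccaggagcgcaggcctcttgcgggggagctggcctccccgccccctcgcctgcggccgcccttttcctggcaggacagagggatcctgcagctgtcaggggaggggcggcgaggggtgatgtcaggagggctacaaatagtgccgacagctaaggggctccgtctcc
Vim: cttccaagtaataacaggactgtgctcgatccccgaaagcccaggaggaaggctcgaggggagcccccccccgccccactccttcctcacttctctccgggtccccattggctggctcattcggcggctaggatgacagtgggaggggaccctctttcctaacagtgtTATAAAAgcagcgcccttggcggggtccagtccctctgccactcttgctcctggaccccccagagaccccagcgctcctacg

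Acta2 held 2 such CArG boxes, CCCTATATGG at -134 to -125 and CCTTGTTTGG at -84 to -75 from the gene start, each with 1 G or C in the core. No match was found in the windows of Des and Vim. On both strands, 8.08% of 33469 rat promoter windows of this length held a CArG box of this kind, and 1.50% held one with a core of A and T alone, which none of the 3 windows did. TATANAA stood at -42 to -36 in Acta2 and at -82 to -76 in Vim and was not found in Des (11.6% of all windows). GGGCGG had 3 matches in Des and 1 in Vim (30.5% of all windows), CCAAT had 1 match in Vim (34.0%), and CANNTG had 1 each in Acta2 and Des (65.5%). None of these matches overlapped another. The longest run that Acta2 and Vim had in common was AGTGGGAGGGGA, starting at -68 and -113, and 16 of the 33469 windows (0.0478%) held it. That run was picked for its length, so its share does not measure how rare such a match is. Acta2 with Des and Des with Vim had longest runs of 9 bases, held by 0.487% and 9% of windows. All of these are matches of letters and say nothing of binding.

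Total counts ranged from 16572004 to 21719946 per library. Members had from 479 counts (Des) to 28109 counts (Vim) in a library, so that counting alone gave an error of at most 4.57% for Des, 3.01% for Tagln, 2.25% for Acta2 and 0.847% for Vim. Levels are given in CPM, a gene's counts per 1000000 counts of the genes that passed the filter in the same library. That total was first multiplied by the library's TMM factor. Since the reads come from transcript ends, levels are compared between animals and not between genes. On the first principal component, with 53.8% of the variance, the BLM animals lay at 17.9, 0.956, 96.9 and 55.6 for replicates 1 to 4, the NINT animals between -11.7 and 4.78 and the SAL animals between -46.2 and -34.1. BLM replicates 3 and 4 therefore stood apart. Fold changes and spreads that rest on them are also given without 1 of them at a time, and correlations without 1 or both. No fit left out both, so a fold change without 1 of them still holds the other. In homogenised lung, a change in how many cells of a type are present and a change in the RNA each cell holds cannot be told apart. Markers of lung and muscle cell types could not be read, because only the 4 members carry a gene name here.

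The highest levels of Acta2 were in 2 of the 4 BLM animals. Its level was 141, 106, 158 and 108 CPM in SAL replicates 1 to 4 and 114, 124, 229.8 and 269 CPM in the BLM replicates. In NINT it was 166, 195, 123 and 156 CPM. BLM replicates 3 and 4 lay above every other animal, while BLM replicates 1 and 2 lay within the SAL range. NINT replicates 1 and 2 lay above all SAL animals and NINT replicates 3 and 4 within their range. Over the 4 animals of each group this gave 128 ± 25.7 CPM for SAL, 184 ± 76.7 CPM for BLM and 160.2 ± 29.7 CPM for NINT (mean ± SD, n = 4).

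Tagln divided the BLM animals in the same way. It stood at 67.0, 61.6, 72.6 and 62.1 CPM in SAL and at 57.0, 65.0, 195 and 116 CPM in BLM. NINT animals had 66.3, 103, 69.4 and 76.1 CPM. The SAL animals were close together, BLM replicates 3 and 4 exceeded all other animals, and BLM replicate 1 had the lowest level of the 12. NINT replicates 2 and 4 lay above the SAL range and the other NINT animals within it. Mean levels with their SD (n = 4) were thus 65.8 ± 5.13 CPM for SAL, 108 ± 63.6 CPM for BLM and 78.7 ± 16.6 CPM for NINT.

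Des varied between the animals of every group, in SAL mostly through replicate 3. SAL animals had 28.7, 26.4, 54.2 and 30.7 CPM, BLM animals 29.1, 25.5, 49.6 and 39.6 CPM, and NINT animals 34.3, 58.2, 38.7 and 49.9 CPM. SAL replicate 3 was nearly as high as the highest NINT animal, and every BLM value lay below it. The other SAL animals lay below all NINT animals. The SAL mean of 34.99 ± 12.9 CPM and the BLM mean of 35.9 ± 10.9 CPM were close, with 45.3 ± 10.8 CPM for NINT (SD, n = 4).

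Vim, in contrast, was almost constant in SAL, at 824, 800.3, 797 and 818 CPM. In BLM it was 1069.9, 1138, 1301 and 779 CPM and in NINT 792, 1009, 1269 and 951 CPM. BLM replicates 1 to 3 lay above every SAL animal, whereas BLM replicate 4, the animal with the most Acta2, had less Vim than any SAL animal. NINT replicate 1 was also below the SAL range and the other NINT animals above it. The mean was 809.6 ± 13.2 CPM for SAL, 1072 ± 218 CPM for BLM and 1005 ± 199 CPM for NINT (SD, n = 4).

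**Figure D1:**
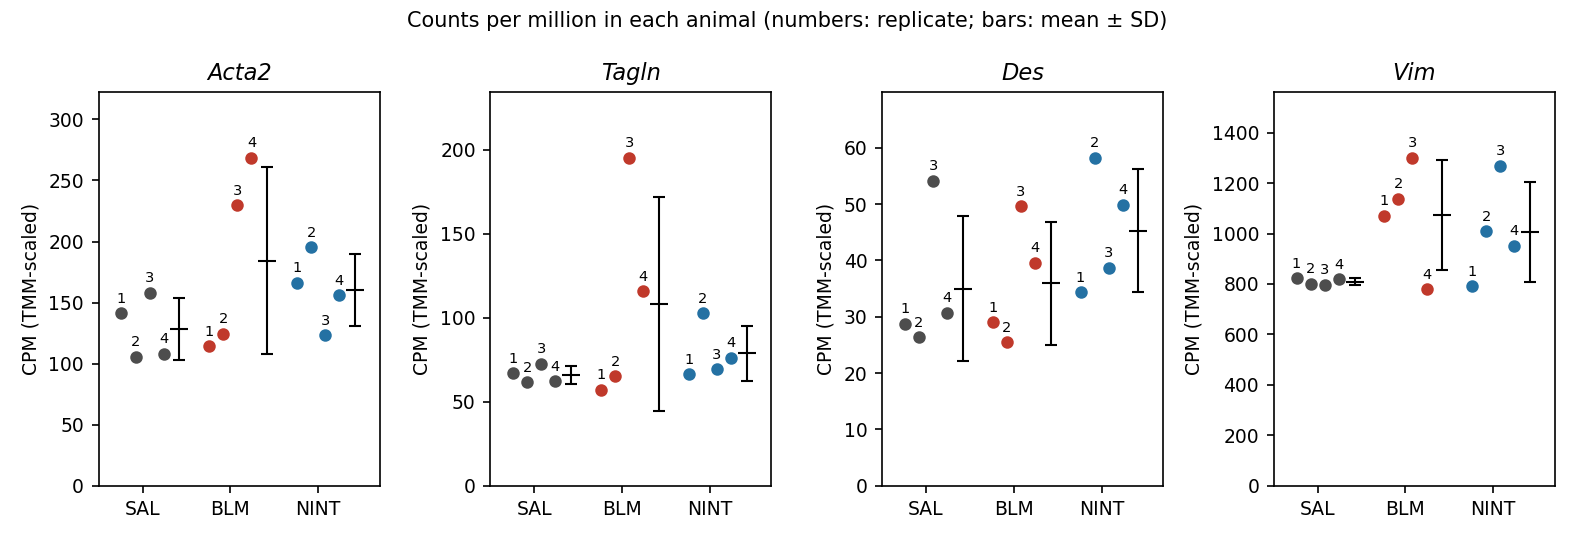
Level of each member in CPM (TMM-scaled, vertical axes from 0) in every animal of SAL, BLM and NINT, with the replicate number above each point and the group mean ± SD beside it. Acta2 and Tagln are highest in BLM replicates 3 and 4, and BLM replicate 4 has 779 CPM of Vim while BLM replicates 1 to 3 have 1069.9 to 1301 CPM.

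The spread between animals was itself unequal. In SAL the SD of log2 CPM was 0.02 for Vim, smaller than that of all but 0.735% of the genes tested, where the median gene had 0.16. With library size alone in place of TMM factors it was 0.046, and 4.48% of genes had a smaller one. It was 0.11 for Tagln, 0.29 for Acta2 and 0.47 for Des in that group. In BLM the SD was 0.82 for Tagln, 0.62 for Acta2, 0.43 for Des and 0.31 for Vim, against 0.26 for the median gene, and 91.2% of genes had a smaller SD than Tagln. Without BLM replicate 3 the SD was 0.54 for Tagln and 0.68 for Acta2, and without BLM replicate 4 it was 0.97 and 0.55. That of Vim was 0.14 without BLM replicate 4 and 0.29 without BLM replicate 3. In NINT all 4 members lay between 0.28 and 0.35, against 0.17 for the median gene.

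The effect of bleomycin alone, under vehicle, was read from BLM against SAL. Of the 4 members, 1 was called (Vim, higher) at an adjusted p under 0.05 in edgeR's quasi-likelihood test, in which 40.8% of the 14956 genes tested were called and 18.3% were called higher. In none of the members did the BLM and SAL animals separate without overlap, as they did for 37.4% of genes. The median log2 fold change of the members was 0.46, beside 0.0019 for all genes tested. The members were chosen with earlier results of these data known, so this difference is no test of them as a set. Vim was 1.32-fold higher in BLM (log2 fold change 0.41, SE 0.15, edgeR adjusted p = 0.0491), with 3 of 4 BLM animals above all SAL animals. That call lay at the threshold. It was lost in 9 of 12 fits without 1 animal, namely without any of the SAL animals, BLM replicates 1, 2 or 3, or NINT replicates 2 or 4. In 8 of these 9 fits the log2 fold change was at least as large as with all animals, from 0.41 to 0.45, and without BLM replicate 3 it was 0.34. Without BLM replicate 4 it was 0.54 (edgeR adjusted p = 0.0136). Over the 23 alternatives the adjusted p ranged from 0.0136 to 0.0933. The exact permutation test of its level per animal gave p = 0.143 (two-sided, smallest possible 0.0286). Without BLM replicate 4 the 3 remaining BLM animals lay above all SAL animals, and p was 0.0286. BLM replicate 4 was the only BLM animal below the SAL range, so that p-value follows from the animal left out. An edgeR test of any difference among the 3 groups called 5645 of the 14956 genes and none of the members. In that test Vim had an adjusted p of 0.0990.

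Tagln had the largest estimate of the 4 in BLM against SAL, 1.64-fold (log2 fold change 0.72, SE 0.31, 95% interval 0.05 to 1.38), and was not called by edgeR (adjusted p = 0.0786). DESeq2 called it (adjusted p = 0.0424). Without BLM replicate 3 its log2 fold change was 0.31 (edgeR adjusted p = 0.266), and without BLM replicate 4 it was 0.69 (edgeR adjusted p = 0.138). Without BLM replicate 1 or 2 it was 0.97 or 0.94 and called. Acta2 was 1.44-fold higher on average (log2 fold change 0.52, SE 0.26, 95% interval -0.03 to 1.08, edgeR adjusted p = 0.117). This estimate was 0.29 without BLM replicate 4 and 0.44 without BLM replicate 3, and called in neither. It was 0.74 or 0.72 without BLM replicate 1 or 2, in both of which Acta2 was called. No fit left out both BLM replicates 3 and 4. BLM replicates 1 and 2 had 114 and 124 CPM of Acta2, beside a SAL mean of 128 CPM. For Tagln they had 57.0 and 65.0 CPM, beside a SAL mean of 65.8 CPM. Des had a log2 fold change of 0.04 (SE 0.26, 95% interval -0.52 to 0.60, edgeR adjusted p = 0.916). It was 0.36 without SAL replicate 3 and -0.11 without BLM replicate 3, and called in neither. The exact permutation test over animals gave p = 0.286 for Acta2, 0.371 for Tagln and 0.914 for Des. Without BLM replicate 3 these were 0.514, 0.657 and 0.771, and without BLM replicate 4 they were 0.543, 0.514 and 0.971.

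**Figure D2:**
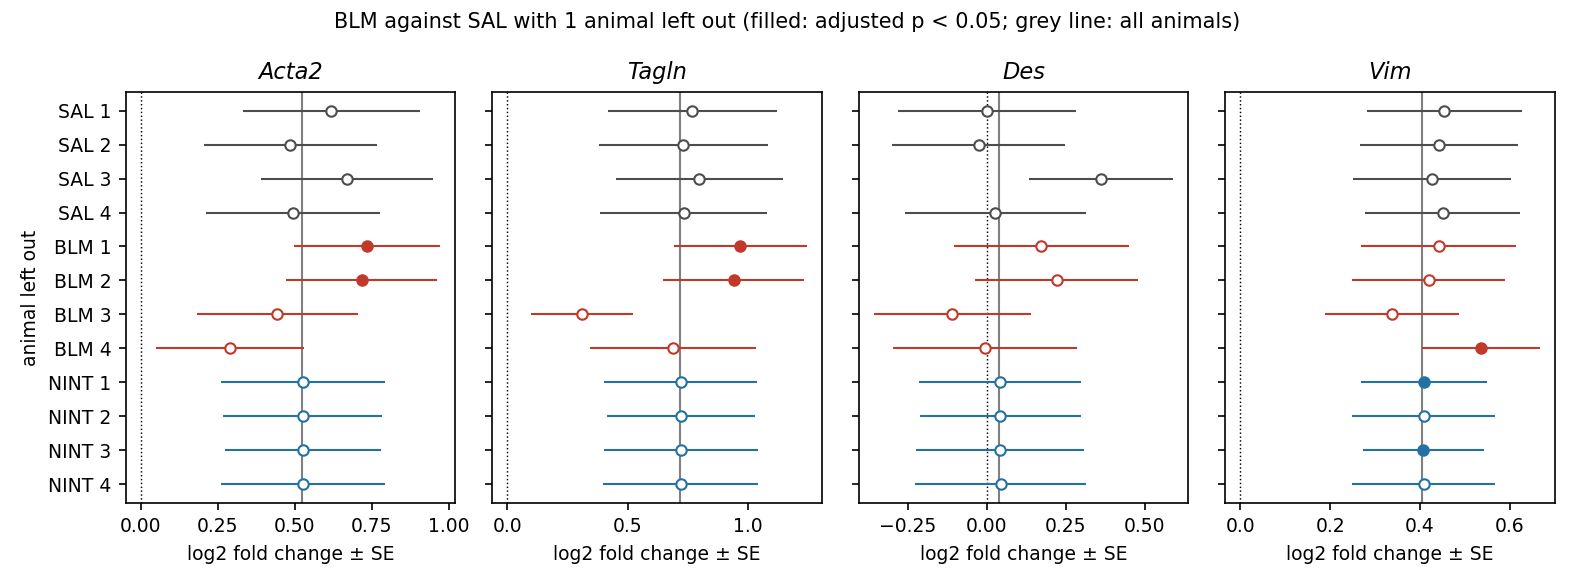
Log2 fold change of each member in BLM against SAL (horizontal axes, points with SE bars) in 12 fits that each left out the animal named on the vertical axis; filled points have an edgeR adjusted p under 0.05 and the grey line is the value with all animals. Leaving out BLM replicate 3 brings Tagln to 0.31, leaving out BLM replicate 4 brings Acta2 to 0.29, and leaving out SAL replicate 3 brings Des to 0.36.

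The effect of nintedanib after bleomycin was read from NINT against BLM. None of the 4 members was called by edgeR, where 5.83% of the genes tested were, and none had an unadjusted p under 0.05; DESeq2 and limma voom called none either. No member separated both groups without overlap, as 16.0% of genes did. Tagln was 0.727 times its BLM level in NINT (95% interval 0.459 to 1.15, edgeR adjusted p = 0.327). This value rested on 1 animal, since without BLM replicate 3 the log2 fold change went from -0.46 to -0.0029. Without BLM replicate 4 it was -0.43. Acta2 was at 0.869 times its BLM level (95% interval 0.593 to 1.27, edgeR adjusted p = 0.612), with a log2 fold change of -0.20 that became 0.04 without BLM replicate 4. Without BLM replicate 3 that log2 fold change was -0.07. Vim was at 0.938 times its BLM level (95% interval 0.746 to 1.18, edgeR adjusted p = 0.704). Des had the opposite sign, 1.26-fold higher in NINT (95% interval 0.855 to 1.86, edgeR adjusted p = 0.400), with NINT replicates 2 and 4 above all BLM animals. These intervals leave room for a change in either direction in each of the 4 genes.

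Animals given both agents were also compared with SAL. In NINT against SAL none of the members was called by edgeR, where 9.30% of genes were, none had an unadjusted p under 0.05, and none separated the groups, as 28.4% of genes did; DESeq2 and limma voom called none. All 4 estimates were positive, with log2 fold changes of 0.37 for Des (SE 0.26), 0.32 for Acta2 (SE 0.26), 0.31 for Vim (SE 0.15) and 0.26 for Tagln (SE 0.31), and edgeR adjusted p-values of 0.358, 0.424, 0.191 and 0.613. Their median was 0.32, beside -0.03 for all genes, which again is no test of genes chosen with earlier results known. Vim was called when only the NINT and SAL libraries were fitted (log2 fold change 0.36, edgeR adjusted p = 0.0430). That fit called 4248 genes, beside 1391 in the fit of all 12 libraries. Without SAL replicate 3 the log2 fold change of Des was 0.70 (edgeR adjusted p = 0.0987), and without NINT replicate 2 it was 0.23. Leaving out NINT replicate 2 also brought Tagln to 0.10 and Acta2 to 0.21, and leaving out NINT replicate 3 brought Vim to 0.18. The level of Vim per animal separated the groups without NINT replicate 1 (exact permutation test, p = 0.0286, the smallest possible), where the edgeR log2 fold change was 0.41 and not called (adjusted p = 0.128). NINT replicate 1 was the only NINT animal below the SAL range, so that exact p follows from the animal left out. With all animals the exact permutation test gave p = 0.143. BLM and NINT are set against the same SAL animals here, so these values are not independent of those for bleomycin alone.

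**Figure D3:**
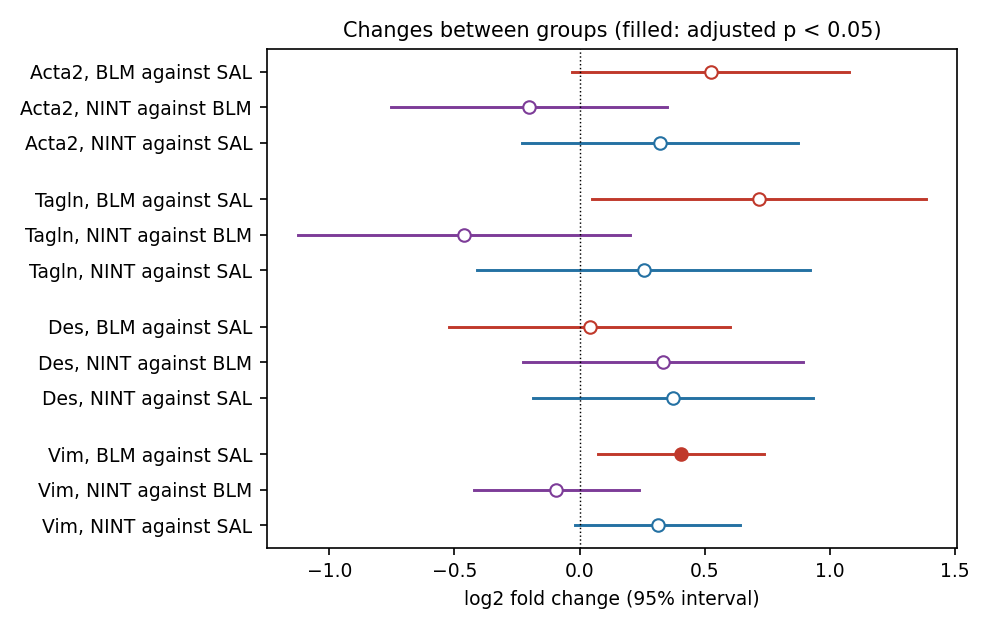
Log2 fold change of each member in the 3 comparisons (points) with its 95% interval from the edgeR fit (lines); the filled point marks the comparison with an adjusted p under 0.05. Vim in BLM against SAL is the filled point, at 0.41, and every interval of NINT against BLM spans 0.

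Ratios of counts within a library need no scaling between libraries, and they set the members against each other animal by animal. Acta2 had 1.72 to 2.18 counts per count of Tagln in SAL and 1.78 to 2.50 in NINT. In BLM it had 2.01, 1.91, 1.18 and 2.32, so that BLM replicate 3, highest in Tagln, lay below all other animals. Per count of Vim, Acta2 had 0.107, 0.109, 0.177 and 0.345 counts in BLM replicates 1 to 4 against 0.132 to 0.198 in SAL. BLM thus held the highest ratio of the 12 animals (replicate 4) together with values below the SAL range in replicates 1 and 2. Tagln had 1.96, 2.55, 3.94 and 2.92 counts per count of Des in BLM and 1.93, 1.76, 1.79 and 1.53 in NINT, and these ranges did not overlap. The nearest values, 1.96 in BLM replicate 1 and 1.93 in NINT replicate 1, differed by less than counting error. In BLM replicate 1 that error was 3.01% for Tagln and 4.21% for Des. In SAL, Tagln had 2.33, 2.33, 1.34 and 2.02 counts per count of Des, a range that overlapped with both. The mean log2 ratio of Tagln to Des was 0.65 lower in NINT than in BLM, 0.80 ± 0.14 against 1.46 ± 0.42 (SD, n = 4 each; exact permutation test, two-sided, p = 0.0286, the smallest possible). It did not pass after adjustment over the 18 differences computed for 6 pairs of members (adjusted p = 0.514), and no other ratio had an exact p under 0.05. A lone ratio at the smallest possible exact p cannot pass this adjustment with 4 animals per group, so the adjusted value decides nothing about it.

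Across the 12 animals, log2 CPM of Acta2 and Tagln correlated at Pearson r = 0.84 (Spearman rho 0.87), and r was 0.82 without BLM replicates 3 and 4, the animals farthest from the median. Des correlated with Acta2 at r = 0.65 (rho 0.66) and with Tagln at r = 0.61 (rho 0.78), and without those animals at 0.77 and 0.82. Vim correlated less, at r = 0.0034 for Acta2 (rho -0.15), 0.35 for Tagln (rho 0.07) and 0.15 for Des (rho -0.04). Without the 2 animals farthest from the median of the gene that Vim was set against, these were -0.10, 0.12 and 0.30. As deviations from the group means, r was 0.81 for Acta2 with Tagln, 0.72 for Acta2 with Des and 0.75 for Tagln with Des, and -0.39 for Acta2 with Vim. Without BLM replicate 3, with group means taken anew, Acta2 with Vim had -0.70 and Tagln with Vim -0.46 (0.13 with all animals), and without BLM replicate 4 these were 0.019 and 0.38. The 3 pairs among Acta2, Tagln and Des had 0.67 to 0.90 without the former and 0.74 to 0.87 without the latter. These are descriptions over animals that share 3 groups and the scaling of their libraries.

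**Figure D4:**
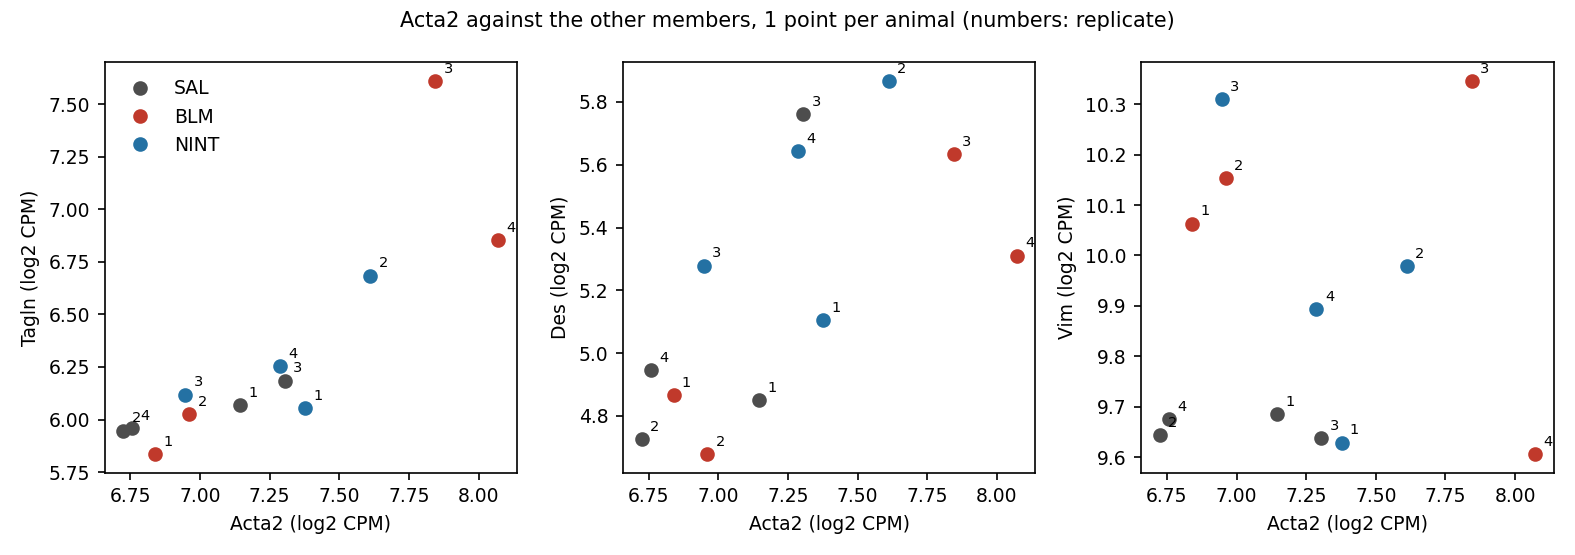
Log2 CPM of Tagln, Des and Vim (vertical axes) against that of Acta2 (horizontal axes), 1 point per animal, coloured by group and numbered by replicate. Tagln is higher where Acta2 is higher (r = 0.84), while the animal with the most Acta2, BLM replicate 4, has the least Vim of the 12 (779 CPM, beside 792 CPM in NINT replicate 1, an order that turns with library size alone as the scaling).

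Among all 14955 other genes tested, Tagln ranked 50 in its correlation with Acta2, and Acta2 ranked 187 in its correlation with Tagln, so many other transcripts followed the same animals more closely. Des ranked 933 for Acta2, while Acta2 ranked 106 for Des. Vim ranked 7551 for Acta2. The gene closest to Tagln was ENSRNOG00000052880, with r = 0.97 (0.92 without BLM replicate 3) and mean levels of 3.05 CPM in SAL, 8.59 in BLM and 3.74 in NINT. Its rise in BLM against SAL was called (log2 fold change 1.50, edgeR adjusted p = 0.0422). By deviations from the group means the closest to Tagln was ENSRNOG00000052925, at r = 0.98 (0.95 without BLM replicate 3), with 407 CPM in SAL, 927 in BLM and 436 in NINT (log2 fold change 1.19 in BLM against SAL, edgeR adjusted p = 0.00573). Another identifier had nearly the same mean levels in the 3 groups (407, 928 and 436 CPM), so both may count the same reads. The genes closest to Acta2, Des and Vim by level had r of 0.91, 0.87 and 0.93, and none of these 3 was called in BLM against SAL.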

How the data were processed

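The authors deposited raw counts, whole numbers of reads per Ensembl gene, for 12 libraries with 1 animal each. The submitters' processing notes list FastQC, STAR, HTSeq and build rn6, without versions or roles. Annotation and strand setting are not given in the sources used here, so overlapping genes and the near-identical actin genes could share reads. Columns were assigned to animals by name, and 7 unnamed empty columns were not used. Every pair of libraries differed by more than counting noise (lowest chi-square over its degrees of freedom, 9.72).

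The members and lists were chosen with earlier results of these data known. The 6 lists of pathway genes (63 genes) and 9 lists of cell type markers (39 genes) were not run, because 0 of the 32623 identifiers matched a gene table. The names of the 4 members came with their identifiers. Besides the members, the gene most correlated with each was to be named, with identifiers limited to 2 that rose and 2 that fell.

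Genes were kept by filterByExpr (minimum count 10, minimum total 15) and tested with the quasi-likelihood test of edgeR 4.0.16 in R 4.3.3. TMM factors were used, all 12 libraries were fitted with a coefficient per group and no covariate, and p-values were adjusted by Benjamini-Hochberg over 14956 genes. Fold changes, standard errors and 95% intervals come from this fit. Log2 CPM used a prior count of 2. Exact permutation tests took every division of the animals of 2 groups. DESeq2 1.42.0, limma 3.58.1 (voom), other scalings, filters and left-out animals were alternatives. Spreads and correlations without BLM replicate 3 or 4, and spreads by library size alone, were added after seeing the data. Tested on simulated data for BLM against SAL, with 14800 genes of which 200 were changed 2-fold, the fit found 87% of those 200, and 3.87% of all genes it called had not been changed. The simulation gave each gene the same spread in all groups, whereas the median SD was 0.16 in SAL and 0.26 in BLM. It also changed far fewer genes than the 40.8% called here, and by more than the members' 1.03- to 1.64-fold estimates. These shares therefore do not carry over to the tests of the members.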

Additional observations from a re-analysis of the deposited data

Results flagged for a closer look

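Each member was searched within each group of 4 for an animal far from the others by Dixon's ratio, 12 sets in all, where chance alone marks about 1 in 20. Des in SAL replicate 3, at 54.2 CPM, was the only one found, with a gap to the next animal of 0.844 of the group's range, just above the critical value for 4 animals. This library also had a TMM factor of 0.993, against 1.03 in the other SAL libraries, and its Acta2 and Tagln were the highest of the SAL group, at 158 and 72.6 CPM. By library size alone, without TMM factors, Des was 53.7 CPM in this library and 27.1 to 31.6 CPM in the other SAL libraries. What part the TMM factor or the levels of Acta2 and Tagln have in the level of Des was not tested.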

How the results depend on the processing

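Of 276 fold changes of the members under alternative settings, 252 kept their sign and their side of the threshold, as did 157 of 168 levels per animal and 213 of 234 log2 ratios. The counts for levels and ratios include values that could not move. Leaving out an animal outside the 2 groups compared does not alter such a difference. A ratio could also hardly pass its adjusted threshold, so keeping its side of it adds little. Unless a value below shows it, the cause of a change was not tested. Vim in BLM against SAL stayed called in 12 of 23 alternatives; it was 0.38 with limma voom (adjusted p = 0.0607) and 0.37 with library size alone (edgeR adjusted p = 0.0684), both not called, and 0.34 to 0.54 with 1 animal left out. Tagln in BLM against SAL was called with DESeq2 (0.72, adjusted p = 0.0424) and with no filter on low counts (0.78, edgeR adjusted p = 0.0494). Vim in NINT against SAL was called with only the groups compared (0.36, edgeR adjusted p = 0.0430).

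With 1 animal left out, log2 fold changes in BLM against SAL ranged from 0.29 to 0.74 for Acta2, 0.31 to 0.97 for Tagln and -0.11 to 0.36 for Des. In NINT against BLM they ranged from -0.37 to 0.035 for Acta2 and from -0.22 to 0.027 for Vim, and for Des from 0.19 to 0.54. For NINT over SAL the ranges were 0.21 to 0.48 for Acta2, 0.10 to 0.35 for Tagln, 0.23 to 0.70 for Des and 0.18 to 0.41 for Vim. Differences in mean log2 CPM ranged from -0.12 to 0.28 for Des in BLM against SAL, and in NINT against BLM from -0.32 to 0.091 for Acta2, -0.55 to 0.039 for Tagln and -0.23 to 0.019 for Vim. Of the log2 ratios, 21 values changed sign. Acta2 over Tagln ranged from -0.22 to 0.11 in BLM against SAL, from -0.024 to 0.30 for NINT over BLM and from -0.013 to 0.15 for NINT over SAL. Acta2 over Vim ranged from -0.29 to 0.27, -0.24 to 0.32 and -0.10 to 0.27 in that order, and Tagln over Vim from -0.082 to 0.42, -0.47 to 0.027 and -0.18 to 0.12. In NINT against SAL, Acta2 over Des ranged from -0.23 to 0.048 and Des over Vim from -0.012 to 0.35.

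Genes called in NINT against BLM, 872 in all, were 1946 with DESeq2, 28 with only the groups compared and from 17, when NINT replicate 2 was left out, to 2857, when BLM replicate 2 was. In NINT against SAL, 1391 became 2295, 4248 and from 675, when NINT replicate 3 was left out, to 3344, when BLM replicate 3 was. The background shares printed for both comparisons move with these counts. Labels give the groups the same replicate numbers, but same-numbered animals correlated at -0.17 to 0.20 in their deviations from the group means, so the numbers were not taken to pair animals. A replicate block gave 5664 called genes for BLM over SAL, 370 for NINT over BLM and 1031 for NINT over SAL, and Vim at 0.38 in BLM against SAL (edgeR adjusted p = 0.0483). Counting error of a member in a library was between 0.596% and 4.57%.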
